A study of Mus musculus with 8 samples.

Results

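Mature oligodendrocytes are the myelin-forming glia of the brain. They arise from dividing precursor cells (OPC) through committed precursors (COP), stop dividing, and wrap axons in sheaths rich in myelin basic protein (encoded by Mbp) and, on the outer surface, myelin oligodendrocyte glycoprotein (encoded by Mog). In the hypothalamus they lie among the neurons and in the fibre tracts that cross it, and the myelin they form speeds the conduction of nerve impulses.

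The oligodendrocytes described here are the cells to which the authors' deposited annotation gives the type Oligodendrocytes, 4435 of 35672 cells (12.4%). The annotation divides them into 3 clusters, Oligodendrocytes_1 with 3289 cells (74.2% of oligodendrocytes), Oligodendrocytes_2 with 768 (17.3%) and Oligodendrocytes_3 with 378 (8.52%). OPC had 765 cells and COP 115. Gene expression was not used here, so neither the label nor the genes that define the clusters could be checked against Mbp and Mog, and the names are the authors' throughout.

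The cells came from the dissected paraventricular nucleus of the hypothalamus (PVN), which starts the hormonal stress response, of C57BL/6 mice, and were profiled as droplet single-cell RNA libraries. The 8 libraries cover every combination of sex, cohort and exposure once, with the number of animals per library not given in the sources used here. In the baseline cohort, aged 10 weeks, the female and male unstressed controls stand beside mice of each sex that were restrained for 15 min (acute restraint stress, ARS) and killed 5 h later. In the CMS cohort, aged 11 weeks, the ARS libraries come from mice that had 21 days of chronic mild stress (CMS) before the same restraint, and the CMS control libraries carry CMS in their titles but are labelled unstressed. "Control" and "ARS" below name the exposure within a cohort, and "stressed" means the 4 ARS libraries of both cohorts.

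No combination has a second library, so each comparison sets 4 libraries against 4 and the p-values rest on the spread left between single libraries after sex, cohort and exposure are taken out. The tests draw that spread from all types or clusters together, to a degree that differs by measure. The cohorts differ in age by label and each was made up of its own libraries, so cohort, age and any difference in handling cannot be told apart. Libraries held 3523 to 5777 cells, 376 to 803 oligodendrocytes and 9924892 to 15760435 UMIs (unique molecular identifiers, each counting 1 captured RNA molecule). Between 10 and 39 cell barcodes were shared by any pair of libraries, and 174 oligodendrocytes carried a barcode found in more than 1 library. None of the 738 pairs of cells with the same barcode had the same number of UMIs.

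The clusters were first compared with each other. This is a description with no test, because the clusters were made from the same cells. Oligodendrocytes_1 and Oligodendrocytes_2 had pooled medians of 3534 and 3587 UMIs per cell, while Oligodendrocytes_3 had 1059.5. By library, Oligodendrocytes_2 had the higher median in 6 of 8, and the difference of Oligodendrocytes_1 from it ran from -277.5 to 208 UMIs, a ratio of 0.934 to 1.06. All 161 oligodendrocytes with fewer than 1000 UMIs were in Oligodendrocytes_3, which also held 346 of the 373 below 2000 UMIs. Among the 33 clusters of the whole table, Oligodendrocytes_3 had the fourth lowest median of UMIs, after Astrocytes_2, Ependymal_2 and Microglia_3. Its median lay below both other clusters in all 8 libraries, by a factor of 2.39 to 3.72 against Oligodendrocytes_1.

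**Figure D1:**
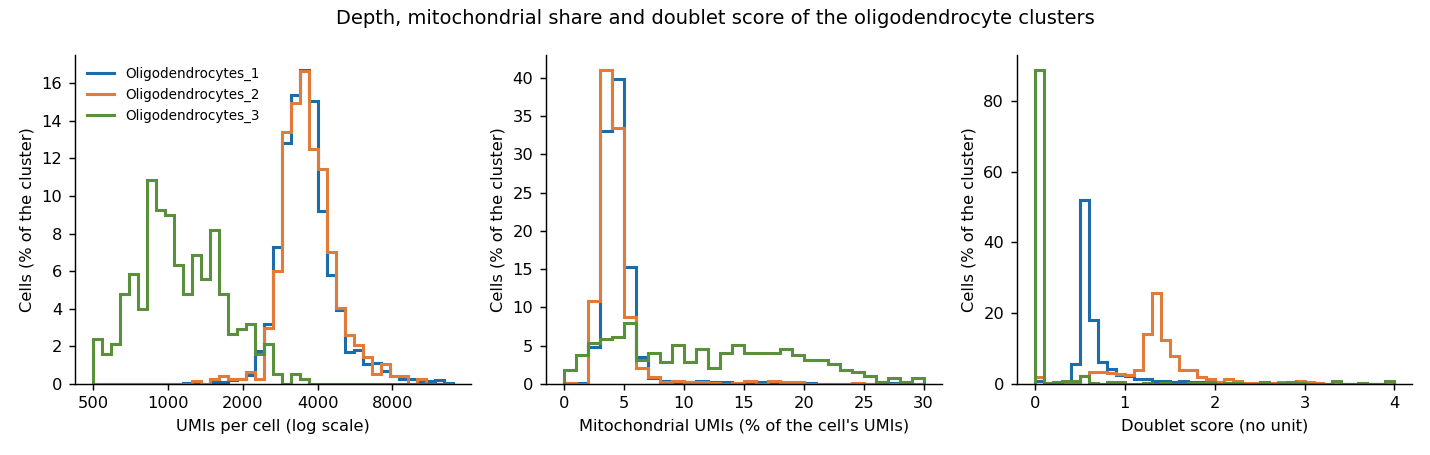
Cells of each oligodendrocyte cluster, as a percentage of the cluster's cells pooled over the 8 libraries, by UMIs per cell (log axis), mitochondrial share of UMIs and doublet score. Oligodendrocytes_1 and Oligodendrocytes_2 overlie each other in depth and part in doublet score, and Oligodendrocytes_3 is shallow, broad in mitochondrial share and mostly at a doublet score of 0.

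The median number of detected genes per cell was 1583 in Oligodendrocytes_1, 1523.5 in Oligodendrocytes_2 and 565.5 in Oligodendrocytes_3. Genes per cell follow depth, with a Spearman rank correlation across cells of 0.97 within Oligodendrocytes_1, 0.96 within Oligodendrocytes_2 and 0.92 within Oligodendrocytes_3. Cells of 3000 to 4000 UMIs were therefore set side by side, a window chosen after the values were seen because most cells of the deep clusters lie in or near it. There, 1767 cells of Oligodendrocytes_1 had a median of 1563 genes and 394 cells of Oligodendrocytes_2 had 1488. Oligodendrocytes_2 had fewer genes in each of the 8 libraries, a difference of -36.5 to -108.5 genes. The fewer genes of Oligodendrocytes_2 were thus also seen at like depth.

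In cells of 1000 to 2000 UMIs, where Oligodendrocytes_3 has most of its cells above 1000, 185 of its cells had a median of 691 genes. The window held 17 cells of Oligodendrocytes_1 with a median of 944 genes and 10 of Oligodendrocytes_2 with 858.5, too few for a comparison by library. The UMI medians inside the window also differed, at 1351, 1747 and 1708.5.

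The mitochondrial share of a cell's UMIs was low and narrow in the deep clusters and high and broad in the shallow one. The median was 4.25% in Oligodendrocytes_1, 3.95% in Oligodendrocytes_2 and 11.3% in Oligodendrocytes_3, the last being the fourth highest of the 33 clusters, after Neurons_mixed, Glut_1 and GABA_1. Oligodendrocytes_2 had a lower median than Oligodendrocytes_1 in 8 of 8 libraries, by 0.0621 to 0.482 percentage points, and in 7 of 8 within the window of 3000 to 4000 UMIs. In Oligodendrocytes_3, 205 of 378 cells (54.2%) had a share of 10% or more, against 66 of Oligodendrocytes_1 (2.01%) and 17 of Oligodendrocytes_2 (2.21%).

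Split into its parts, the depth of Oligodendrocytes_3 differed in pooled medians mainly in 1 of them. The median number of mitochondrial UMIs per cell was 153 in Oligodendrocytes_1, 147 in Oligodendrocytes_2 and 143.5 in Oligodendrocytes_3, whereas the median of all other UMIs was 3373, 3420 and 938. By library, mitochondrial UMIs in Oligodendrocytes_1 exceeded those in Oligodendrocytes_3 in 4 libraries and fell short of them in 4, a ratio of 0.848 to 1.50. Other UMIs were 2.53 to 4.13 times as many in Oligodendrocytes_1 in all 8. The high mitochondrial share of Oligodendrocytes_3 thus went with fewer of the other UMIs in every library. Its number of mitochondrial UMIs was alike in pooled medians and went either way by library.

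**Figure D2:**
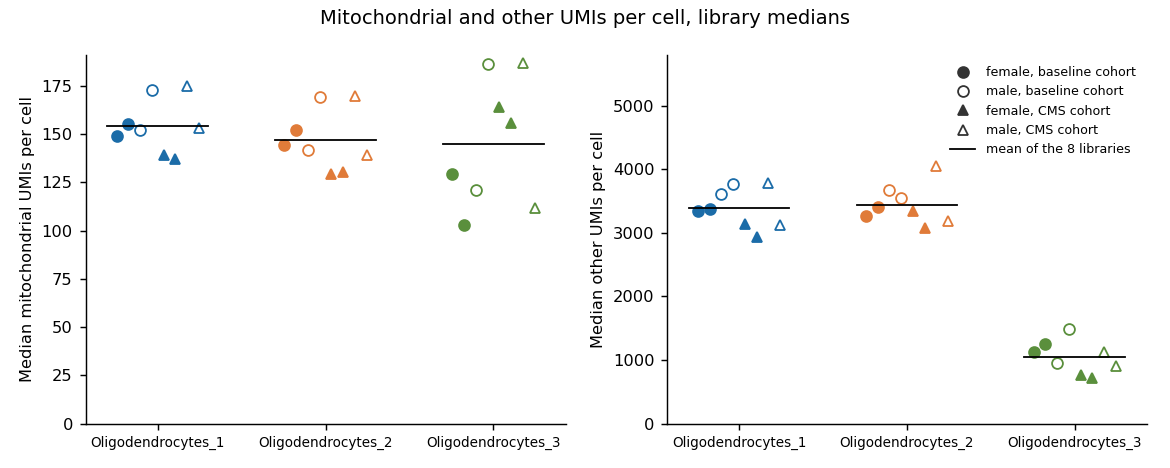
Library medians of mitochondrial UMIs per cell (left) and of all other UMIs per cell (right) in each oligodendrocyte cluster, 1 point per library; the line is the mean of the 8 libraries. The 3 clusters overlap on the left, and Oligodendrocytes_3 lies below both others in every library on the right.

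Within Oligodendrocytes_3 the mitochondrial share varied widely between cells, so they were also split at a share of 10%. The 205 cells with a mitochondrial share of 10% or more had a median of 174 mitochondrial and 810 other UMIs. The 173 cells below that had 61 and 1251. The classes were cut from the share itself, so more mitochondrial UMIs relative to the rest in the first follow from the cut. Whether they are separate kinds of cell was not tested. The number of other UMIs and the number of mitochondrial UMIs went together across cells in Oligodendrocytes_1 (Spearman 0.53) and Oligodendrocytes_2 (0.53) and hardly in Oligodendrocytes_3 (0.12). These correlations describe cells of the same 8 libraries.

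The doublet score, a number deposited for each cell and named for droplets that hold more than 1 cell, set the 3 clusters apart. Its median was 0.578 in Oligodendrocytes_1, 1.34 in Oligodendrocytes_2 and 0 in Oligodendrocytes_3, and the order of the mean scores was the same in all 8 libraries. A score of 1 or more was found in 362 cells of Oligodendrocytes_1 (11.0%), 641 of Oligodendrocytes_2 (83.5%) and 21 of Oligodendrocytes_3 (5.56%). A score of exactly 0 was found in 335 cells of Oligodendrocytes_3 (88.6%), and only in 23 cells of Oligodendrocytes_1 and 15 of Oligodendrocytes_2. Oligodendrocytes_2 thus held 641 of the 1024 oligodendrocytes with a score of 1 or more (62.6%). For comparison, the median score was 1.42 in OPC and 2.39 in COP, and it was 0 in 11 of the 33 clusters of the whole table. Oligodendrocytes_3 ranked 4 of the 33 in its share of cells at 0, after Microglia_3, Ependymal_2 and Neurosecretory. Across cells the score rose with UMIs, with a Spearman correlation of 0.45 in Oligodendrocytes_1, 0.30 in Oligodendrocytes_2 and 0.45 in Oligodendrocytes_3. Whether Oligodendrocytes_2 contains doublets was not tested.

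The cell-cycle scores, deposited for each cell and named for the S and the G2/M phase, were near 0 in every cluster. Over all oligodendrocytes the mean was 0.00941 for S and -0.0173 for G2/M, with an SD between cells of 0.0376 and 0.0387. A score above 0.2 in either phase was found in 1 of 4435 oligodendrocytes and 0 of 115 COP, against 48 of 765 OPC (6.27%). Mean S scores were higher in Oligodendrocytes_2 than in Oligodendrocytes_3 in 8 of 8 libraries, while the mean G2/M score of Oligodendrocytes_1 lay above that of Oligodendrocytes_2 in 4 libraries and below it in 4.

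The share of oligodendrocytes among all cells was compared next. In the baseline cohort it was 14.4% in the female control, 12.0% in the female ARS, 12.5% in the male control and 15.1% in the male ARS library. In the CMS cohort it was 11.5% in the female control, 12.4% in the female ARS, 10.2% in the male control and 10.7% in the male ARS library. The cohorts overlap, since the female CMS ARS library lies above the female baseline ARS library.

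No comparison of this share passed the edgeR quasi-likelihood test at a Benjamini-Hochberg adjusted p of 0.05, and none did at an unadjusted p of 0.05. DESeq2, which scaled libraries by its own size factors rather than by all cells, called none either. The log2 fold change was 0.05 (SE 0.23, edgeR adjusted p = 0.944) for stressed against control, 0.07 (SE 0.23, adjusted p = 0.960) for female against male and -0.28 (SE 0.23, adjusted p = 0.380) for CMS against baseline. The 95% intervals ran from a ratio of 0.759 to 1.42 for stress, 0.769 to 1.44 for sex and 0.604 to 1.13 for cohort. Of the 17 types tested, 0% passed for stress, 5.88% for sex and 17.6% for cohort.

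Within oligodendrocytes, the make-up by cluster differed between the cohorts. Oligodendrocytes_2 made up 13.2% of oligodendrocytes in the female baseline control, 14.1% in the female baseline ARS, 17.1% in the male baseline control and 13.3% in the male baseline ARS library. In the CMS cohort it made up 20.7% in the female control, 17.5% in the female ARS, 25.0% in the male control and 25.5% in the male ARS library. Every CMS library lay above every baseline library, though the lowest CMS value and the highest baseline value were close and their exact 95% intervals (14.6% to 20.8% and 13.8% to 20.9%) overlap.

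The fraction was 22.2% ± 3.78 (SD, n = 4) in the CMS cohort and 14.4% ± 1.84 in the baseline cohort, a log2 fold change of 0.61 (SE 0.11, edgeR adjusted p = 0.0418) and a ratio of 1.52 (95% interval 1.26 to 1.84). It was the 1 cluster called of 25 tested (4%), the 25 being all clusters of types that have more than 1. Oligodendrocytes_1 made up 68.7% ± 3.55 and 78.2% ± 3.87, with a log2 fold change of -0.18 (SE 0.07) that did not pass (edgeR adjusted p = 0.176), and its cohorts did not overlap either. Non-overlapping cohorts were found in 6 of the 25 clusters (24%). Over all clusters or types, overlap was counted for these fractions only, not for the other measures below. Oligodendrocytes_3 made up 9.07% ± 2.12 in the CMS and 7.33% ± 4.27 in the baseline cohort (log2 fold change 0.31, SE 0.31, edgeR adjusted p = 0.720). The 3 fractions sum to the whole, so a higher one goes with lower others by construction.

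The call for Oligodendrocytes_2 was near the threshold. It was kept in 4 of 15 alternatives, with edgeR, DESeq2 and limma adjusted p-values between 0.0154 and 0.895, and it kept its direction in all 15. It was lost in 7 of the 8 fits without 1 library (adjusted p 0.0692 to 0.219), with the matched libraries as a block (edgeR adjusted p = 0.113) and with Oligodendrocytes_3 left out (edgeR adjusted p = 0.0556).

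**Figure D3:**
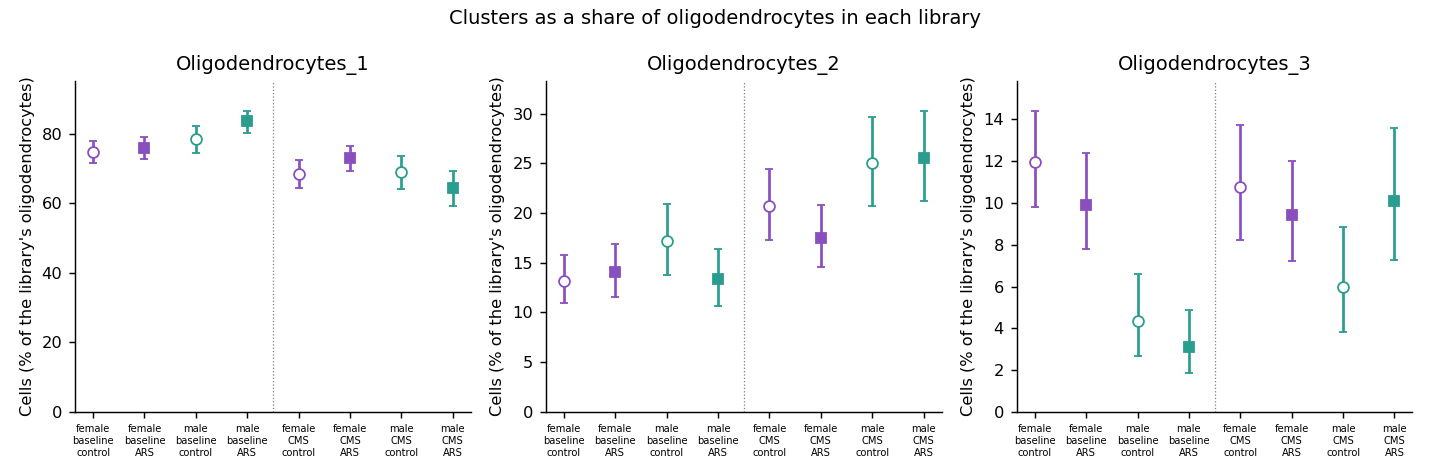
Each cluster as a percentage of the library's oligodendrocytes, with exact 95% Clopper-Pearson intervals that cover counting error only; female libraries are purple, male green, controls open circles, ARS filled squares, and the dotted line parts the cohorts. Oligodendrocytes_2 runs from 13.2% to 17.1% in the baseline and from 17.5% to 25.5% in the CMS cohort, and Oligodendrocytes_3 is lowest in the male baseline libraries.

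As shares of all cells rather than of oligodendrocytes, both deep clusters kept their order. Oligodendrocytes_1 made up 7.70% ± 0.997 (SD, n = 4) of all cells in the CMS and 10.6% ± 1.50 in the baseline cohort, and Oligodendrocytes_2 2.45% ± 0.236 and 1.94% ± 0.187. Neither pair of cohorts overlapped and neither passed the test (edgeR log2 fold changes -0.46 and 0.34, adjusted p = 0.209 and 0.336). How many of all clusters were without overlap in this share was not counted. No oligodendrocyte cluster was called among 32 clusters (3.12% called), and none had an unadjusted p under 0.05. DESeq2 with its own size factors called none either.

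Because most cells of Oligodendrocytes_2 had a doublet score of 1 or more, its cells were also counted on either side of that score. The share of all oligodendrocytes with such a score was 22.9%, 19.5%, 27.1% and 22.1% in the baseline libraries (female control, female ARS, male control, male ARS) and 25.3%, 20.6%, 25.8% and 24.7% in the CMS libraries, so the cohorts overlapped.

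Of the oligodendrocytes with a score of 1 or more, Oligodendrocytes_2 held 44.6% in the female baseline control, 55.9% in the female baseline ARS, 52.8% in the male baseline control and 52.3% in the male baseline ARS library. It held 75.0% in the female CMS control, 76.4% in the female CMS ARS, 77.8% in the male CMS control and 82.8% in the male CMS ARS library. The means were 78.0% ± 3.40 and 51.4% ± 4.82 (SD, n = 4 each), with a gap between the groups. This measure was added after the fractions were seen and was not tested. Of the cells of Oligodendrocytes_1, 7.46% ± 1.21 in the CMS and 13.5% ± 2.37 in the baseline cohort had a score of 1 or more. The cohorts again did not overlap, though overlap in this share was not counted over all clusters.

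Among the oligodendrocytes with a score under 1, the sexes went opposite ways between the cohorts. In males, Oligodendrocytes_2 held 13 of 336 such cells (3.87%) in the baseline control and 10 of 450 (2.22%) in the baseline ARS library, against 19 of 285 (6.67%) in the CMS control and 19 of 283 (6.71%) in the CMS ARS library. In females it held 24 of 619 (3.88%) and 22 of 560 (3.93%) at baseline, against 9 of 389 (2.31%) and 11 of 489 (2.25%) in the CMS cohort. The higher fraction in male CMS libraries was thus seen on both sides of the score, and that in female CMS libraries only at 1 or more. These numbers are small, were counted after the fractions were seen and were not tested. Over both sexes the fraction without cells of a score of 1 or more had a log2 fold change of 0.20 (edgeR adjusted p = 0.895), a fit that leaves out 641 of the 768 cells of Oligodendrocytes_2 and averages the opposite directions.

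**Figure D4:**
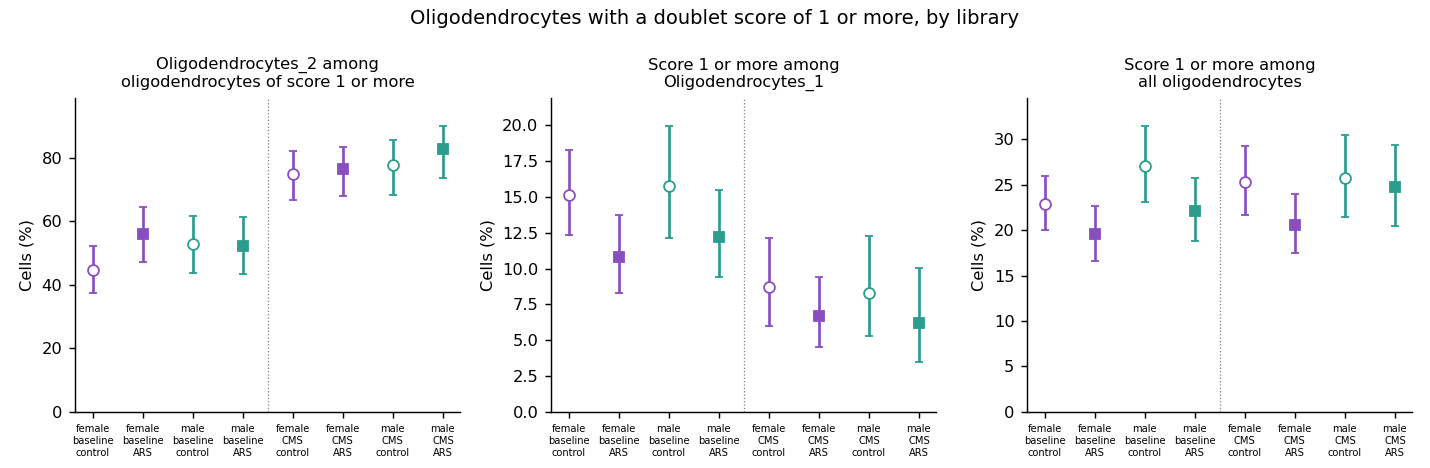
Oligodendrocytes with a doublet score of 1 or more: the percentage of them that lie in Oligodendrocytes_2 (left), their percentage of Oligodendrocytes_1 (middle) and of all oligodendrocytes (right), by library, with exact 95% Clopper-Pearson intervals; female libraries are purple, male green, controls open circles, ARS filled squares, and the dotted line parts the cohorts. The cohorts are apart on the left (44.6% to 55.9% against 75.0% to 82.8%) and in the middle, and overlap on the right.

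The mean doublet score of Oligodendrocytes_1 was 0.649 ± 0.0217 in the CMS and 0.730 ± 0.0228 in the baseline cohort (SD, n = 4 each). The difference of -0.0812 (SE 0.0145) passed the limma test (adjusted p = 0.0376), as did 2 of the 29 clusters tested for this score (6.9%). Relative to the mean score of the library's other cells it was -0.0480 and not called (limma adjusted p = 0.756). It was also lost in 7 of 8 fits without 1 library (adjusted p 0.0813 to 0.236). The mean score of Oligodendrocytes_3 was also without overlap, 0.0690 ± 0.0355 and 0.305 ± 0.117, and did not pass (limma adjusted p = 0.112). In that cluster, cells with a score of 1 or more numbered 0 to 2 per CMS library and 2 to 11 per baseline library. Of the 29 clusters, 8 had an unadjusted limma p under 0.05 for the mean score, and overlap was not counted over them.

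Oligodendrocytes_3 differed between the cohorts in its mitochondrial share. Of its cells, 42.7% in the female baseline control, 29.0% in the female baseline ARS, 40.0% in the male baseline control and 50.0% in the male baseline ARS library had 10% or more of mitochondrial UMIs. In the CMS cohort the values were 87.5% in the female control, 79.3% in the female ARS, 69.6% in the male control and 42.1% in the male ARS library. The first 3 lie above every baseline library and the last lies among them. The numbers of cells behind these values are small, 18 to 96 per library.

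The log2 odds of such a cell were higher by 1.89 (SE 0.56, limma adjusted p = 0.0180) in the CMS cohort, and 3 of 29 clusters were called for this measure (10.3%). The limma prior was infinite here, so the SE rests wholly on spread pooled over clusters and would not widen for a cluster that varies more than others. The call was lost in 6 of 8 fits without 1 library (log2 odds 1.53 to 2.43, limma adjusted p 0.0738 to 0.152). Oligodendrocytes_1 and Oligodendrocytes_2 lay the other way without overlap, at 1.01% ± 0.422 against 2.61% ± 0.260 and 1.19% ± 0.878 against 3.35% ± 1.41. Neither passed (limma adjusted p = 0.0609 and 0.0554), and overlap was not counted over all clusters. For Oligodendrocytes_2 the shares rest on 0 to 2 cells per CMS library and 2 to 5 per baseline library. Its cohorts were apart only by 2 of 108 cells in each female CMS library against 2 of 106 in the female baseline control. Of the 29 clusters, 11 had an unadjusted limma p under 0.05 for this measure. Oligodendrocytes_3 held 86.8% ± 1.96 of all oligodendrocytes of 10% or more in the CMS cohort and 49.7% ± 13.2 in the baseline cohort, which was not tested.

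Other measures of Oligodendrocytes_3 did not pass between the cohorts. The median mitochondrial share was 8.99%, 6.44%, 6.69% and 10.3% in the baseline libraries (female control, female ARS, male control, male ARS) and 17.4%, 17.3%, 13.9% and 7.35% in the CMS libraries, a difference of 5.89 percentage points (SE 2.37, limma adjusted p = 0.164). Median UMIs per cell were lower by 0.36 on the log2 scale (SE 0.13, limma adjusted p = 0.195) and median genes by 0.41 (SE 0.11, adjusted p = 0.130). In the cells of other types, the share with 10% or more was 19.8% ± 2.71 in the CMS and 18.8% ± 2.47 in the baseline cohort (SD, n = 4 each), with overlap. Over the 8 measures, 2 of 24 values of oligodendrocyte clusters were called between cohorts, where 3.88% of all 232 values were. For oligodendrocytes as a whole 0 of 8 measures were called by limma, and 1 had an unadjusted p under 0.05. Of the 128 values of all types, 10.2% were called and 18.75% had an unadjusted p under 0.05.

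Between the sexes, Oligodendrocytes_3 stood at a higher fraction of oligodendrocytes in most female libraries without passing the test. Its fraction was 12.0% in the female baseline control, 9.91% in the female baseline ARS, 10.7% in the female CMS control and 9.42% in the female CMS ARS library. In the male libraries it was 4.34% in the baseline control, 3.11% in the baseline ARS, 5.99% in the CMS control and 10.1% in the CMS ARS library. The male CMS ARS library alone among the males reached the female values. The log2 fold change was 0.92 (SE 0.32, edgeR adjusted p = 0.194), a ratio of 1.89 (95% interval 1.10 to 3.25).

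Of 14 alternatives, 1 passed, the fit without the male CMS ARS library (log2 fold change 1.32, edgeR adjusted p = 0.00627). That fit leaves out the male library nearest the female values. The edgeR, DESeq2 and limma adjusted p-values of the alternatives reached 0.664. By cohort, the ratio of the female to the male mean was 2.93 at baseline and 1.25 in the CMS cohort, with 2 libraries of each sex in each. As a share of all cells, Oligodendrocytes_3 was without overlap, lowest at 1.16% in female and highest at 1.08% in male libraries. It did not pass (log2 fold change 1.0, SE 0.31, edgeR adjusted p = 0.0972), and overlap in this share was not counted over all clusters. Of 13 alternatives for this share, 1 passed, again the fit without the male CMS ARS library (log2 fold change 1.37, edgeR adjusted p = 0.00802). The edgeR, DESeq2 and limma adjusted p-values here reached 0.429.

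Of the cluster fractions, 0 of 3 were called between the sexes by edgeR and 0 by DESeq2. Oligodendrocytes_2 and Oligodendrocytes_3 had an unadjusted p under 0.05, as did 5 of all 25 clusters, of which 0% were called. Oligodendrocytes_2 had the lower fraction in female libraries in 3 of 4 matched pairs (log2 fold change -0.28, SE 0.11, edgeR adjusted p = 0.225). Of the 25 clusters, 12% had sexes that did not overlap, and no oligodendrocyte cluster was among them. As shares of all cells, 0 of 3 oligodendrocyte clusters and 0% of the 32 clusters were called. Of the 3, 1 had an unadjusted p under 0.05, as did 3 of the 32.

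The share of oligodendrocytes with 10% or more of mitochondrial UMIs was also compared between the sexes. It was 7.60%, 5.46%, 10.7% and 8.60% in the female libraries (baseline control, baseline ARS, CMS control, CMS ARS) and 4.34%, 3.98%, 4.95% and 4.79% in the male ones. It did not follow the fraction of Oligodendrocytes_3 library by library, since the male CMS ARS library, with a fraction in the female range, lay among the other males here. The sexes did not overlap, at 8.10% ± 2.20 and 4.51% ± 0.440 (SD, n = 4 each), though overlap was not counted over all types. The difference of 0.84 in log2 odds (SE 0.24) did not pass the limma test (adjusted p = 0.0731).

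The mean G2/M score of oligodendrocytes was higher in female than in male libraries. It was -0.0137 in the female baseline control, -0.0131 in the female baseline ARS, -0.0157 in the female CMS control and -0.0151 in the female CMS ARS library. It was -0.0219 in the male baseline control, -0.0223 in the male baseline ARS, -0.0217 in the male CMS control and -0.0213 in the male CMS ARS library. The sexes were apart by several times the spread within either, and the cohorts and exposures lay close together within each sex. The difference was 0.00739 (SE 0.00131, limma adjusted p = 0.0242), small beside the SD of 0.0387 between cells, and higher in 4 of 4 matched pairs.

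This was 1 of 4 types called for G2/M out of 16 (25%), the others being Glut neurons and Mixed_Endothelial cells, both higher in females, and OPC, lower in females (difference -0.0140, SE 0.0032, limma adjusted p = 0.0281). Among clusters, Oligodendrocytes_1 had a difference of 0.00718 (SE 0.00145, limma adjusted p = 0.0277), with 20.7% of 29 clusters called. Oligodendrocytes_2 had 0.00923 (SE 0.00298, adjusted p = 0.0919) and Oligodendrocytes_3 0.00607 (SE 0.00263, adjusted p = 0.164) in the same limma fit. When each library's other cells were taken as its zero point, oligodendrocytes differed by 0.00416, which did not pass (limma adjusted p = 0.185). With matched libraries as a block it was not called either (limma adjusted p = 0.0508), nor in 5 of 8 fits without 1 library (adjusted p 0.0571 to 0.0992).

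**Figure D5:**
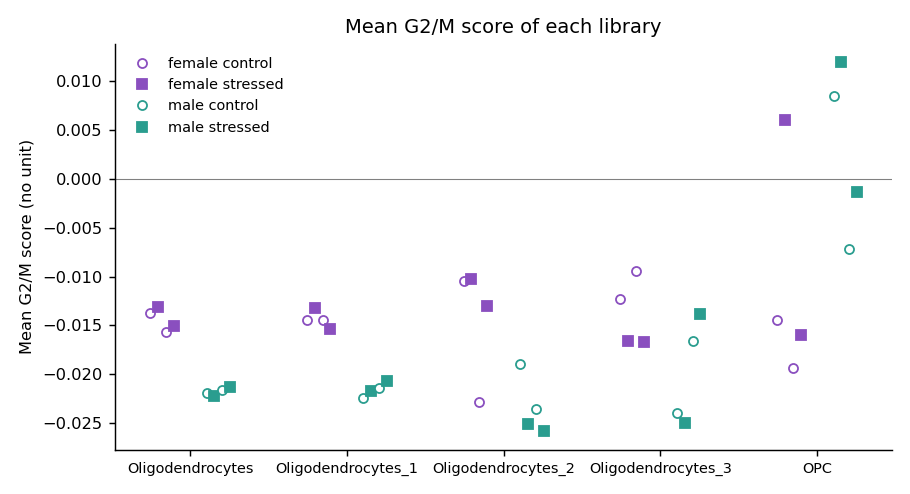
Mean G2/M score (no unit) of oligodendrocytes, their clusters and OPC, 1 point per library, with female libraries in purple on the left and male in green on the right of each position, controls as open circles and ARS libraries as filled squares. For oligodendrocytes and Oligodendrocytes_1 every female library lies above every male one; the sexes overlap in Oligodendrocytes_2, Oligodendrocytes_3 and OPC.

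Over the 8 measures of cell properties, 1 value of 8 for oligodendrocytes and 1 of 24 for their clusters was called between the sexes, both of them the G2/M score, where 4.69% of the values of all types and 3.88% of those of all clusters were called. Median UMIs per oligodendrocyte were lower in the female library of all 4 matched pairs, at 3377 against 3726 in the baseline controls, 3468 against 3901 in the baseline ARS, 3249 against 3951 in the CMS control and 3042.5 against 3205 in the CMS ARS libraries. Depth thus differed between the sexes in the same pairs as the score. The UMI medians of the sexes overlapped, at 3042.5 to 3468 in female and 3205 to 3951 in male libraries. Among females, the CMS libraries had fewer UMIs and lower scores than the baseline ones. The part of depth in the score was not tested.

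Between stressed and control libraries no measure of oligodendrocytes was called. Of the cluster fractions, 0 of 3 were called by edgeR and by DESeq2 and 0 had an unadjusted p under 0.05, with 0% of 25 clusters called and 0% without overlap. The log2 fold changes were 0.03 (SE 0.07, 95% interval of the ratio 0.906 to 1.15) for Oligodendrocytes_1, -0.11 (SE 0.11, 0.765 to 1.12) for Oligodendrocytes_2 and -0.08 (SE 0.31, 0.560 to 1.60) for Oligodendrocytes_3. The first 2 intervals exclude a 1.5-fold difference, and the last does not. As shares of all cells, 0% of the 32 clusters were called and 0 of 3 oligodendrocyte clusters had an unadjusted p under 0.05.

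The median mitochondrial share of oligodendrocytes was higher in the ARS library of all 4 matched pairs. It was 4.19% and 4.37% in the female baseline control and ARS libraries, 3.95% and 4.25% in the male baseline, 4.19% and 4.38% in the female CMS and 4.35% and 4.54% in the male CMS libraries. Stressed and control libraries overlap. The difference of 0.214 percentage points (SE 0.0901) did not pass the limma test (adjusted p = 0.345). The mean S score was likewise higher in all 4 pairs, at 0.0107 ± 0.00201 against 0.00814 ± 0.00140 (SD, n = 4 each), and did not pass (limma adjusted p = 0.286). Over the 8 measures, 0 of 8 values of oligodendrocytes and 0 of 24 of their clusters were called by limma, none had an unadjusted p under 0.05, and 0% of the 128 values of types and of the 232 of clusters were called.

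Whether stressed and control libraries differed by unlike amounts in the sexes or the cohorts was tested by interaction terms. The stressed libraries had restraint alone at baseline and CMS before restraint in the CMS cohort. The cohort by stress term thus sets unlike treatments against each other. None was called for oligodendrocytes or a cluster of them by edgeR for shares of all cells or of oligodendrocytes. DESeq2 on the same numbers of cells and limma on cell properties called none either. For shares, 0% of types and of clusters were called in both interactions, and no oligodendrocyte share had an unadjusted p under 0.05. For cell properties, 0.781% of the values of types and 0.431% of those of clusters were called in the sex by stress term and 0% in the cohort by stress term. For the fraction of Oligodendrocytes_3, the ratio of stressed to control means was 0.800 at baseline and 1.17 in the CMS cohort, and the interaction had a log2 value of 0.58 (SE 0.63, edgeR adjusted p = 0.992). Its 95% interval of -1.07 to 2.23 leaves large differences of either sign within reach.

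An unadjusted p under 0.05 was found for 2 interaction values of oligodendrocyte clusters, both in Oligodendrocytes_3. That was 1 of 24 values in each term. Of the 232 values of all clusters, 6.03% had such a p in the sex by stress term. In the cohort by stress term 4.31% did, so the oligodendrocyte clusters were near the share over all clusters. Its median UMIs had a cohort by stress term of -0.52 on the log2 scale (SE 0.22, limma adjusted p = 0.372). At baseline the median was 1235 in the female control and 1314 in the female ARS, and 1009 in the male control and 1661.5 in the male ARS library. In the CMS cohort it was 919 and 904.5 in the female and 1172 and 1017 in the male control and ARS libraries. The other was a sex by stress term of the mean doublet score (-0.221, SE 0.0764, limma adjusted p = 0.266).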

How the data were processed

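Per the submitters' processing notes, the authors used Cell Ranger 3.0.2 and 3.1.0 with mm10 and Seurat 3.1.3; the version used for each library, the cell filters and the tools of the scores were not given in the sources used here. Each line of the authors' table is 1 cell with its labels, deposited UMI and gene counts, mitochondrial share (a deposited fraction, written here as percent) and doublet, S and G2/M scores, as deposited by the authors. Cells were mapped to libraries by their labels, and none was left out. No doublets were removed here.

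Numbers of cells were tested with edgeR 4.0.16 in R 4.3.3, with the library's cells, or the cells of the cluster's own type, as offset; clusters needed 80 cells. Library medians, score means and log2 odds (0.5 added) were tested with limma 3.58.1 where each library had 10 cells. Terms were sex, cohort and exposure, with p-values adjusted over all types or clusters within a comparison and measure. DESeq2 1.42.0 was an alternative. For shares of all cells it scaled libraries by its own size factors, not by their numbers of cells. Intervals (scipy 1.17.1) cover counting error only. The tests were run on simulated data with the same spread for every type or cluster, so unlike spread between clusters was not covered. Members, lists and cuts were chosen with earlier results of these data known. The text names all oligodendrocyte clusters, OPC and COP, and other types only where few were called; clusters named for their rank were chosen after their values were seen.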

Additional observations from a re-analysis of the deposited data

Results flagged for a closer look

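In 11 of 252 groups of 4 libraries examined, over 42 measures of the oligodendrocytes and their clusters, 1 library stood apart from the other 3 by Dixon's criterion. Chance flags about 1 in 20, a share these flags do not exceed. The male baseline ARS library accounts for 6 of the 11. The 6 are not independent, since the groups share libraries and several flags rest on the same cells. Its Oligodendrocytes_3 made up 3.11% of oligodendrocytes, where the other stressed libraries had 9.42% to 10.1%, and 0.470% of all cells against 1.08% to 1.19%. The same cluster had a median of 806.5 genes per cell there, against 554 to 589 in the other male libraries, with 18 cells behind the value. Its Oligodendrocytes_2 had a mean S score of 0.0194, above the other baseline libraries (0.00990 to 0.0114) and above the other stressed ones (0.0108 to 0.0114). The same cluster held 2.22% of the oligodendrocytes with a doublet score under 1 there, against 3.87% to 3.93% in the other baseline libraries.

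Oligodendrocytes_3 made up 1.73% of all cells in the female baseline control library, where the other female libraries had 1.16% to 1.24%. The mean S score of Oligodendrocytes_1 was 0.00754 in the female CMS ARS library and 0.0118 to 0.0124 in the other stressed ones. The mean doublet score of Oligodendrocytes_2 was 1.27 in the male CMS ARS library and 1.36 to 1.37 in the other stressed ones. Of the cells of Oligodendrocytes_1, 2.995% had 10% or more of mitochondrial UMIs in the female baseline control library and 2.46% to 2.49% in the other baseline ones. Of those of Oligodendrocytes_2, 5.10% did in the female baseline ARS library and 1.85% to 1.89% in the other female ones. What sets these libraries apart was not tested.

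The share of Oligodendrocytes_2 among oligodendrocytes with a doublet score under 1 differed between the cohorts in opposite directions in the sexes. It was higher in the CMS library of both male pairs, by 3.64 percentage points on average, and lower in both female pairs (mean difference -1.62 points). Whether the sexes differ in this was not tested.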

How the results depend on the processing

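Of the counts of oligodendrocyte calls, 276 were within 1.5 times their main value under an alternative and 34 were not. Between cohorts, the 1 call among cluster fractions became 0 with limma, with matched libraries as a block and without cells of a doublet score of 1 or more (which leaves out most of Oligodendrocytes_2), and was 0 to 1 in fits without 1 library. The 2 calls among cluster properties became 4 with the block and 1 with trend and robust moderation, and 0 to 4 without 1 library. Between sexes, the 1 call among properties of the type and the 1 among properties of clusters became 0 with the block and relative to the library's other cells, and 0 to 1 without 1 library. The 0 calls among shares of all cells by cluster and among cluster fractions became 1 without the male CMS ARS library and were 0 to 1 over all such fits.

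For single values, 273 kept direction and side of the threshold, 42 were no longer past it, 9 were newly past it and 18 changed sign. For stress, the log2 fold change of Oligodendrocytes_3's fraction (-0.08) was 0.25 without cells of 10% mitochondrial UMIs or more, 0.035 without cells under 1000 UMIs and -0.33 to 0.20 without 1 library. That of Oligodendrocytes_1 (0.03) was -0.010 to 0.080 without 1 library. For sex, Oligodendrocytes_1 (-0.01) was 0.038 and 0.022 without those cells, 0.062 without Oligodendrocytes_3, and -0.067 to 0.029 without 1 library. For cohort, Oligodendrocytes_3 (0.31) was -0.81 and -0.36 without those cells. The share of oligodendrocytes among all cells was -0.028 with TMM factors and -0.041 to 0.16 without 1 library for stress (main 0.05). For sex it was -0.030 with DESeq2 and its own size factors (main 0.07). None of these was called; the cause was not tested. Leaving out Oligodendrocytes_3 and the window of 3000 to 4000 UMIs were chosen after seeing the data.

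With 18 to 96 cells of Oligodendrocytes_3 per library, counting error alone is wide. The matched libraries share sex and cohort, not animals, so the block is no pairing by animal.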
